A study of Mus musculus with 6 samples.

Results

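Kinesins are motor proteins that use ATP to walk along microtubules or to take them apart, and the genes described here are the 42 protein-coding mouse genes whose symbols begin with Kif or Kifc and a number, out of 53801 gene identifiers with deposited counts. Kinesin motors with other names, such as Cenpe, are not among them. The 5 other genes with such a name were left out, namely Kif1bp, which encodes a kinesin-binding protein and no motor, the pseudogenes Kif22-ps, Kif4-ps and Kifc5c-ps, and the antisense gene Kif16bos. By the known roles of their proteins, 14 were placed with the mitotic kinesins, 17 with the transport kinesins and 11 with the ciliary and other kinesins. No kinesin gene passed a test of the difference between tumours of sevoflurane-primed cells and control tumours. Kif20a, Kif3c, Kif22 and Kif24 held 57.7% of all 6843 kinesin reads. Their mean levels were higher in the tumours of primed cells, by 0.37 to 0.77 on the log2 scale. By contrast, 28 of the 35 kinesins with enough reads for a test had a lower fitted level there. This was 80.0%, beside 53.1% of all tested genes, 65.3% of tested protein-coding genes and 30 of 33 tested olfactory receptor genes. Without a minimum of reads, 29 of 42 kinesins were lower, beside 26279 of 42423 genes with a read and 841 of 1071 olfactory receptor genes.

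The data were RNA-seq read counts per gene from 6 melanomas of wild type C57BL/6 mice aged 10 to 12 weeks, grown from injected B16-F10 cells, a mouse melanoma line, over up to 4 weeks. For 3 tumours (SEVO) the cells had first been kept with sevoflurane, a volatile anaesthetic, in a chamber that was flushed at 2% for 30 min and stayed closed for 2 h. For the other 3 tumours (CTRL) the cells had not been exposed to the anaesthetic. RNA came from small pieces of tissue, so tumour cells and host cells were measured together, and a lower level from fewer cells of a type and one from less RNA per cell cannot be told apart.

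In dividing cells, mitotic kinesins push spindle poles apart, move chromosomes and build the midzone at which the cell is cut. Transport kinesins carry vesicles, mitochondria and other cargo along microtubules, usually with the help of adaptors and light chains. Others act in cilia, at centrioles or on microtubule ends. Many mitotic kinesins are made mainly in cells that are about to divide, and several transport kinesins are best known from neurons.

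Kinesin reads were few. The gene counts of a tumour added up to 723431 to 1348676 reads, or 2.06% to 4.61% of its aligned reads, and 1025 to 1293 of them lay on kinesins. Of 7 melanocyte markers, 7 had reads, and their summed normalised count (CPM, reads scaled to a common library size) was 771 to 1430 in the CTRL and 671 to 1590 in the SEVO tumours. The labels give monocytes as the cell type, but the macrophage markers together reached only 109 to 356 CPM, most of it from Csf1r. Of the exon bases of Csf1r, 15.1% lie opposite exons on the other strand. Olfactory receptor genes, best known from the sensory cells of the nose, served as a low reference for read density. Their 1093 members had 1.57, 0.105 and 0.717 reads per kilobase of exon in CTRL tumours 1, 2 and 3, and 0.231, 0.265 and 0.478 in SEVO tumours 1, 2 and 3. CTRL tumours 1 and 2 thus lay at the extremes, and the values of both groups overlapped.

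All 42 kinesin genes had at least 1 read, and levels between genes were compared as reads per kilobase of exon, summed over the 6 tumours. Kif20a had the most, 246 reads per kilobase, followed by Kif3c with 228, Kif22 with 98.7 and Kif24 with 88.6. Kif2a came next with 39.9, then Kifc3 with 24.9, Kif18b with 23.0 and Kif5b with 22.8, and the lowest was Kif12 with 3.53. The median kinesin had 8.95 reads per kilobase and the median olfactory receptor gene 2.94. In CTRL tumour 1 the read density of the first 4 genes was at least 8.82 times that of the olfactory receptors, and that of the other 38 was at most 3.91 times. In no tumour did a gene of the other 38 reach the lowest of these 4 relative to the olfactory receptors. The order among the many genes between 3.53 and about 12 reads per kilobase cannot be read from these counts, since their densities in single tumours overlapped widely.

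**Figure D1:**
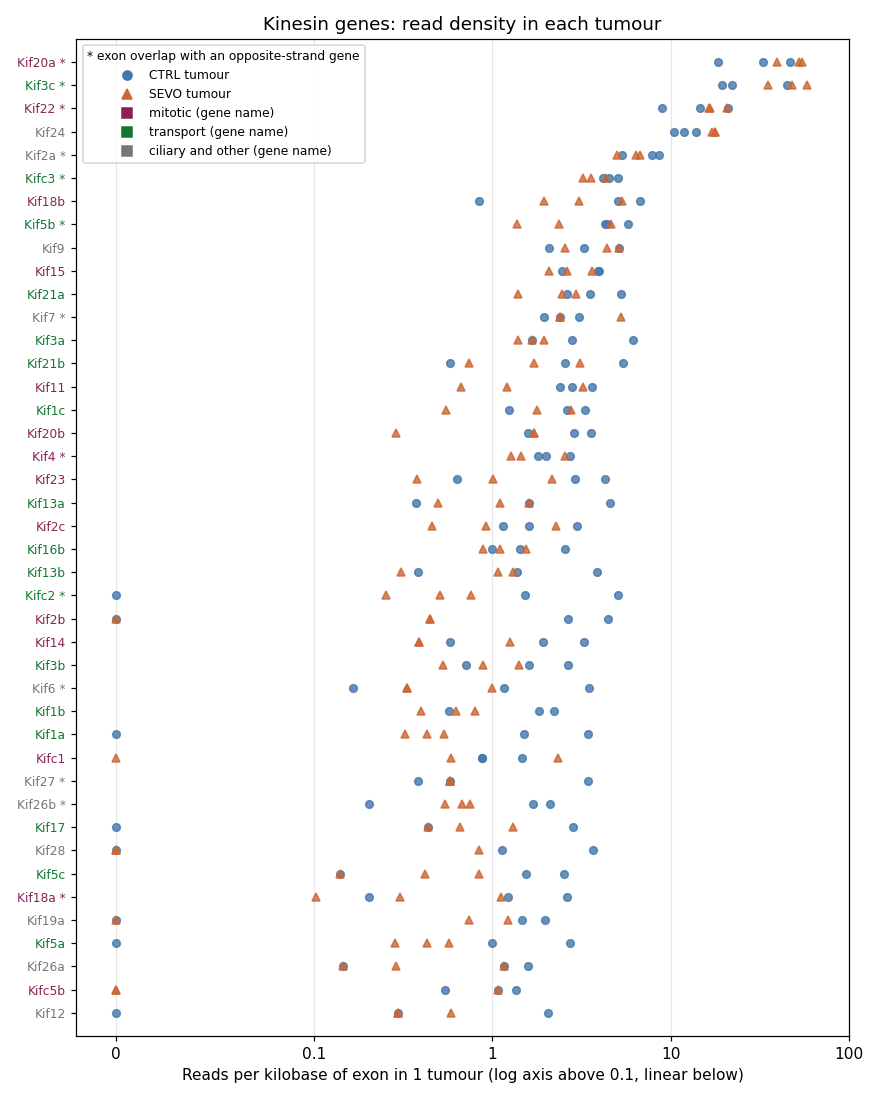
Read density of each kinesin gene in each tumour, in reads per kilobase of exon on an axis that is logarithmic above 0.1 and linear below, with genes ordered by their sum. Circles are CTRL and triangles SEVO tumours, gene names are coloured by class, and an asterisk marks exon overlap with a gene on the opposite strand. Kif20a, Kif3c, Kif22 and Kif24 stand above the other 38 genes, and 7 genes had 0 reads in CTRL tumour 2.

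The 4 well counted kinesins and the other 38 went different ways from tumour to tumour. Kif20a, Kif3c, Kif22 and Kif24 together had 407, 721 and 446 reads in CTRL and 808, 913 and 651 in SEVO tumours. The other 38 genes had 886, 304 and 619 reads in CTRL and 260, 348 and 480 in SEVO tumours. CTRL tumour 1 was lowest for the 4 genes and highest for the 38, and SEVO tumour 1 was lowest for the 38. The share of kinesin reads on the 4 genes was therefore 31.5%, 70.3% and 41.9% in CTRL against 75.7%, 72.4% and 57.6% in SEVO tumours, and the groups overlapped through CTRL tumour 2. Per kilobase of exon, the 38 genes had 3.36, 1.15 and 2.35 reads in CTRL and 0.986, 1.32 and 1.82 in SEVO tumours. CTRL tumours 1 and 3 and SEVO tumour 3, the highest in these genes, were also the highest in the density of olfactory receptor reads given above. The part of such reads in the kinesin counts was not tested, but the density was used as a covariate in a fit that was added after the data were seen.

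**Figure D2:**
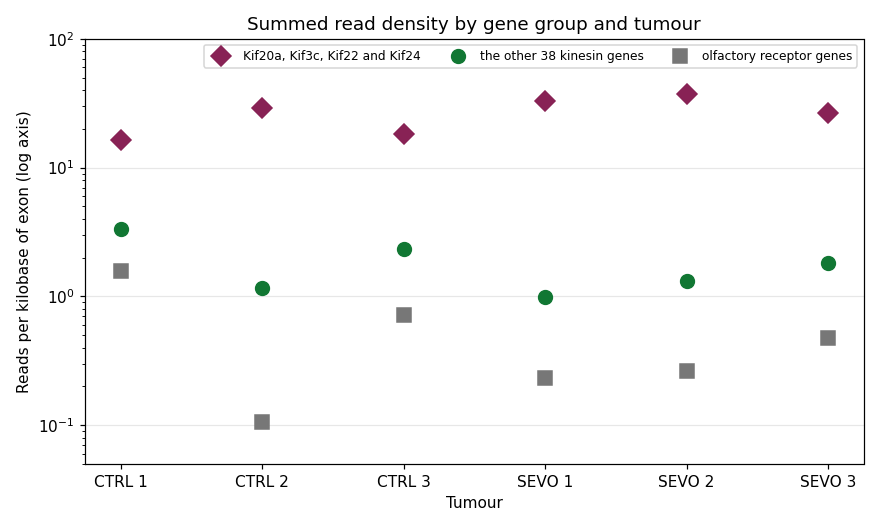
Summed reads per kilobase of exon in each tumour, on a logarithmic axis, for the 4 kinesins with the highest density (diamonds), the other 38 kinesins (circles) and the olfactory receptor genes (squares). CTRL tumour 1 has the lowest value of the 4 genes, 16.5, and the highest of the other 38, 3.36.

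For the comparison of SEVO with CTRL tumours, which asked whether a change made by priming was still present in the grown tumour, genes with at least 30 reads over the 6 tumours were tested, 35 of the kinesins among 13095 genes. At an adjusted p under 0.05 (edgeR's quasi-likelihood test, Benjamini-Hochberg adjustment over all tested genes), 0 of 35 kinesins differed, beside 0.0% of all tested genes. At an unadjusted p under 0.05 the count was again 0 of 35, beside 3.67% of all tested genes. At the thresholds of the study, p under 0.02 and a fold change of at least 1.5, it was 0 of 35 beside 0.901%. DESeq2's Wald test, run on all 42 kinesins, also gave 0 at each of these thresholds, beside 0.0%, 0.625% and 0.116% of all genes. Adjusted p-values of the tested kinesins in edgeR ranged from 0.811 to 0.999. For single genes, the fitted log2 fold change (log2 FC, SEVO against CTRL) is given ± its standard error (SE), with the exact two-sided permutation test of the CPM, which cannot go below p = 0.1 with 3 tumours against 3. The spread between tumours was wide, with a biological coefficient of variation of 0.461, and in simulated counts of this spread 17% of genes with a 4-fold change and 1% of those with a 2-fold change were called at an adjusted p under 0.05.

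Most fitted values were below 0, in kinesins as in other groups of genes. The fitted log2 fold change, SEVO against CTRL, was below 0 in 28 of 35 kinesins (80.0%), beside 53.1% of all tested genes, 65.3% of tested protein-coding genes and 30 of 33 tested olfactory receptor genes. The median was -0.40 in 11 mitotic, -0.66 in 16 transport and -0.35 in 8 ciliary and other kinesins, beside -0.07 over all tested genes, -0.32 over protein-coding genes and -0.66 over olfactory receptor genes. Without the minimum of 30 reads, the value was below 0 in 29 of 42 kinesins and 26279 of 42423 genes with a read. The median was -0.38 in both. Of the olfactory receptor genes, 841 of 1071 were below 0, with a median of -0.84. Only 33 of their 1093 members had reached the minimum, and the family had its most reads, 5504, in CTRL tumour 1. A minimum on summed reads can thus pick members that are high in CTRL tumours. With the minimum kept and the olfactory receptor density as a covariate, the medians of the mitotic and transport kinesins were -0.15 and -0.11. That of all genes was 0.17. Among markers of cell types, the value was below 0 in 5 of 7 melanocyte (median -0.15), 4 of 4 endothelial (-0.85), 2 of 2 fibroblast (-1.0), 1 of 2 T and NK cell (-0.52), 1 of 3 macrophage (0.47), 1 of 1 neuron and Schwann cell (-0.86) and 1 of 1 muscle genes (-1.07) with enough reads, and 0 of 3 keratinocyte markers had enough. The part of cell mixture in the kinesin values was not tested. Groups that did not overlap in CPM were found in 4 of 35 kinesins (11.4%), beside 8.49% of all tested genes. They were Kif24 and Kif7, higher in SEVO (beside 4.32% of all genes), and Kif20b and Kif21a, lower in SEVO tumours (beside 4.17%).

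**Figure D3:**
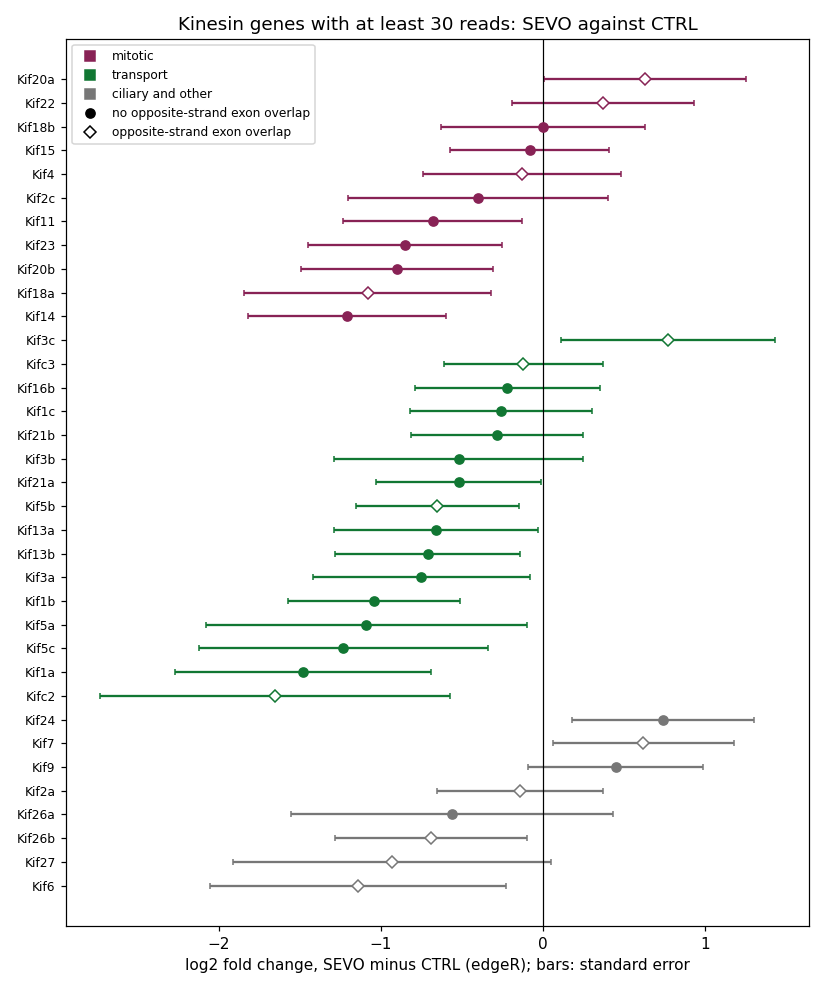
Fitted log2 fold change, SEVO minus CTRL, of the 35 tested kinesin genes by class, with the standard error as bars. Open diamonds are genes with exon overlap on the opposite strand, filled circles those without. Points lie below 0 for 28 genes, and Kif3c has the highest value, 0.77.

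Mitotic kinesins had 393, 403 and 393 reads in CTRL and 374, 446 and 401 in SEVO tumours, so that the totals of both groups overlapped. Summed over the 6 tumours, Kif20a and Kif22 made up most of them, with 1066 and 484 reads, though not in CTRL tumours 1 and 3, and the remaining genes had from 15 to 206 reads in all. Of the 11 tested genes, 8 had a lower and 3 a higher fitted level in SEVO tumours, and none passed the test.

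Promoters of mitotic kinesins differed in letters from those of transport kinesins. The motif TTTGAA, read on either strand, is known as the cell cycle genes homology region, a binding site of complexes that repress genes until the last phases of the cell cycle, and CCAAT is the site of the factor NF-Y. RefSeq promoters on GRCm38.p6 were matched by symbol to 33 of the 42 genes, and Kif20a, Kif5b, Kifc2 and Kifc3 were among the 9 with no entry. TTTGAA was found in 11 of 13 promoters of mitotic kinesins (84.6%), in 1 of 13 promoters of 11 transport kinesins (7.69%), in 2 of 11 of the others (18.2%) and in 17.9% of 32851 promoters of all genes. Within 30 bases of the RefSeq transcription start it was found in 9 of 13 mitotic (69.2%) and 0 of 13 transport promoters, and in 3.19% of all promoters. These starts can differ from the gene starts given below, which come from GENCODE. The entries of Kif14, Kif2c, Kif4, Kif17 and Kif27 and 1 entry of Kif1a lie inside the gene. That entry of Kif1a is the only transport promoter with TTTGAA, and those of Kif14, Kif2c, Kif4 and Kif27 hold it too. Kifc1 and Kifc5b, near copies of each other, were counted separately. Kif2a, of the same kinesin family as the mitotic Kif2b and Kif2c, was placed with the others, and its 2 entries hold neither motif. The mitotic shares would be lower with Kif2a among them. CCAAT, which can share at most 1 base with TTTGAA, was found in 69.2% of mitotic, 30.8% of transport and 37.4% of all promoters. A match of letters is no evidence of binding. To show the motif beside the start, the last 100 bases before it and the first 20 after it follow for 4 mitotic and, as a contrast, 2 transport kinesins, 5′ to 3′ on the strand of the gene, with TTTGAA and CCAAT on either strand in capitals.
Kif11 (chr19:37376282-37376401, plus strand): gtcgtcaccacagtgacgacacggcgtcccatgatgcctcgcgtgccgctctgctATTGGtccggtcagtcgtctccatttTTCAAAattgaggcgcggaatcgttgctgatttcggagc
Kif15 (chr9:122950981-122951100, plus strand): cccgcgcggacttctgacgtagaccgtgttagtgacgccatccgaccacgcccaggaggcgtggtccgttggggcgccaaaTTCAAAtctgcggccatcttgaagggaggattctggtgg
Kif22 (chr7:127042401-127042520, minus strand): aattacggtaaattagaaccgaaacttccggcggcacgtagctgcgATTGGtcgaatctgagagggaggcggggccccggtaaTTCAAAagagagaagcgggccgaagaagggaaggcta
Kif23 (chr9:61946780-61946899, minus strand): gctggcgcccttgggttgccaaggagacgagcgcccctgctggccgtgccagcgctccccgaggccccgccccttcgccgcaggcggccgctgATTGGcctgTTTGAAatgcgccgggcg
Kif3b (chr2:153291316-153291435, plus strand): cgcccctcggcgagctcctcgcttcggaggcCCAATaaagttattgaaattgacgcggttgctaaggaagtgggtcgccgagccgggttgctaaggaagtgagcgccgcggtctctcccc
Kif5c (chr2:49619186-49619305, plus strand): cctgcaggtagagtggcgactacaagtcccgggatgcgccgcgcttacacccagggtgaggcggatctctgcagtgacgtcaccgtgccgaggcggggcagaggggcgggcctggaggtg

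In the first 4 stretches the capitals nearest the start are TTTGAA or its reverse complement TTCAAA. The stretch of Kif3b holds CCAAT only and that of Kif5c neither motif. The 4 mitotic genes shown had fitted log2 FC of both signs, above 0 in Kif22 and below 0 in Kif11, Kif15 and Kif23, as given below.

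Kif20a (ENSMUSG00000003779.16, chromosome 18 from 34624613 to 34633277, plus strand), which brings the chromosomal passenger complex to the midzone before the cell is cut, had 80, 204 and 144 reads in CTRL and 228, 238 and 172 in SEVO tumours. CTRL tumours 1 and 3 were the lowest, but CTRL tumour 2 lay among the SEVO tumours. In CPM, Kif20a was at 165 ± 113 in CTRL and 255 ± 63.2 in SEVO tumours (SD, n = 3 each), with a log2 FC of 0.63 ± 0.62 (SE, adjusted p = 0.811 in edgeR, exact permutation p = 0.3). The 3′ end of its exons, 1271 of 4338 bases (29.3%), lies opposite exons of Cdc23, a subunit of the anaphase-promoting complex. Cdc23 had 219, 745 and 381 reads in CTRL and 689, 652 and 339 in SEVO tumours, and the order of the CTRL tumours was the same in both genes. The strand setting of the count was not given in the sources used here. Gm48512, whose exon bases all lie opposite those of Kif3c, held 53 to 106 reads per tumour, and only 3838 to 6114 reads per tumour were set aside as lying on several genes, where a count without strand would have put the reads of such a gene. Whether the strand used was that of the library bears on every kinesin value and was not tested.

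Kif22 (ENSMUSG00000030677.8, chromosome 7 from 127027729 to 127042471, minus strand), a chromokinesin that pushes chromosome arms away from the poles, had 72, 103 and 44 reads in CTRL and 82, 102 and 81 in SEVO tumours. The SEVO tumours lay within the range of the CTRL tumours. At 81.6 ± 54.5 CPM against 105 ± 18.3, CTRL against SEVO, its log2 FC was 0.37 ± 0.56 (adjusted p = 0.819 in edgeR, exact permutation p = 0.5). Only 96 of its exon bases (1.96%) lie opposite another gene, the antisense gene Gm31749. A processed pseudogene, Kif22-ps, could share reads with it but held at most 2 reads per tumour.

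Kif11 (ENSMUSG00000012443.4, chromosome 19 from 37376403 to 37421859, plus strand), the motor that slides spindle poles apart, had 18, 21 and 27 reads in CTRL and 5, 9 and 24 in SEVO tumours. SEVO tumours 1 and 2 were below every CTRL tumour and SEVO tumour 3 was not. It stood at 23.6 ± 8.39 and 14.2 ± 9.90 CPM, with a log2 FC of -0.68 ± 0.55 (adjusted p = 0.811 in edgeR, exact permutation p = 0.2). Kif15, which can keep a spindle bipolar when Kif11 is blocked, had 43, 27 and 44 reads in CTRL and 29, 40 and 23 in SEVO tumours, with a log2 FC of -0.08 ± 0.49.

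Among the motors of cytokinesis, Kif23 (ENSMUSG00000032254.10, chromosome 9 from 61915905 to 61946774, minus strand), which forms centralspindlin with Racgap1, had 34, 5 and 23 reads in CTRL and 3, 8 and 17 in SEVO tumours. CTRL tumour 2 lay among the low SEVO values. Kif23 was at 18.9 ± 10.4 and 10.5 ± 7.08 CPM, with a log2 FC of -0.85 ± 0.60 (adjusted p = 0.811 in edgeR, exact permutation p = 0.3). Kif14 (ENSMUSG00000041498.13, chromosome 1 from 136466343 to 136531511, plus strand), which acts with citron kinase at the midbody, had 34, 6 and 20 reads in CTRL and 4, 4 and 13 in SEVO tumours. CTRL tumours 1 and 3 were above and CTRL tumour 2 between the SEVO tumours. It had the lowest unadjusted p of the tested kinesins in edgeR, 0.0559. At 18.4 ± 9.15 and 7.92 ± 5.06 CPM, its log2 FC was -1.21 ± 0.61 (adjusted p = 0.811 in edgeR, exact permutation p = 0.2). Kif20b (ENSMUSG00000024795.11, chromosome 19 from 34922361 to 34975745, plus strand), which acts in the last step of cytokinesis, had 20, 11 and 25 reads in CTRL and 2, 12 and 12 in SEVO tumours. In raw reads the groups overlapped, while in CPM all CTRL tumours, at 15.4 or more, lay above all SEVO tumours, at 14.4 or less. Its log2 FC was -0.90 ± 0.59 (adjusted p = 0.811 in edgeR, exact permutation p = 0.1, the smallest that can be had).

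The other mitotic kinesins gave no clearer picture. Kif18b, which shortens astral microtubules, had a log2 FC of 0.00 ± 0.63, and Kif4, a chromokinesin that also works with Prc1 at the midzone, one of -0.13 ± 0.61. Kif18a, which dampens chromosome movement at alignment, was at -1.08 ± 0.76, with 26, 2 and 12 reads in CTRL and 1, 3 and 11 in SEVO tumours. Kif2c, which depolymerises microtubules at kinetochores, was at -0.40 ± 0.80. Kif2b, Kifc1 and Kifc5b, with 18, 21 and 15 reads in all, were too low for the test. Kifc1, a motor that walks to the minus end, Kifc5b and the pseudogene Kifc5c-ps are near copies of each other, and Kif4 has a processed pseudogene, so their counts are uncertain.

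Of 23 genes listed as partners of mitotic kinesins, such as Tpx2, Prc1 and Aurkb, 23 had enough reads. The list also holds Cenpe, itself a mitotic kinesin. A total of 17 had a lower fitted level in SEVO tumours, with a median log2 fold change of -0.40. At an unadjusted p under 0.05, 2 were lower in SEVO tumours, beside 2.70% of all tested genes. They were Aspm, a spindle pole protein, at -1.73 ± 0.59, and Racgap1, the partner of Kif23, at -1.72 ± 0.60, both with an adjusted p of 0.811 (edgeR). Racgap1 had 35, 10 and 30 reads in CTRL and 2, 4 and 13 in SEVO tumours, so that the reads overlapped while the CPM did not. Ect2, which is recruited by Racgap1 and activates RhoA for cytokinesis, came next at -1.11 ± 0.60.

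**Figure D4:**
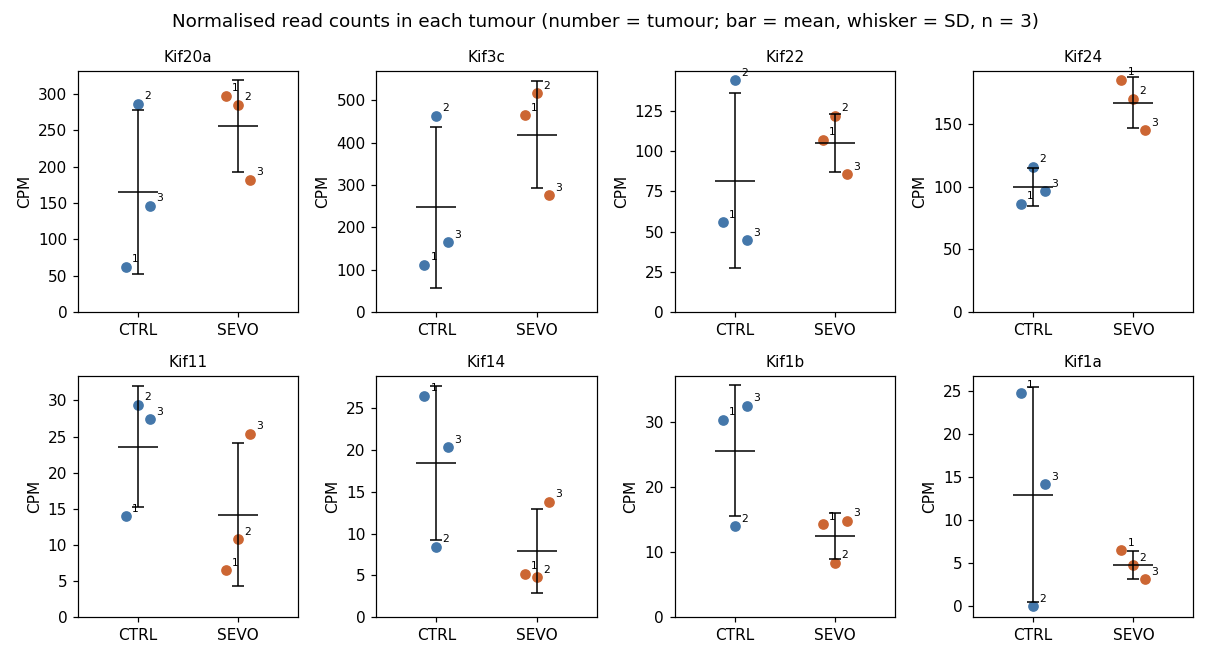
Normalised read counts (CPM) of 8 kinesins in each tumour, with the tumour number beside each point, the group mean as a bar and the SD as a whisker (n = 3 each). In Kif20a, Kif3c and Kif22, CTRL tumour 2 is the highest CTRL tumour and lies above at least 1 SEVO tumour, in Kif24 all SEVO tumours lie above all CTRL tumours, and in Kif14, Kif1b and Kif1a CTRL tumour 2 is the lowest CTRL tumour.

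Transport kinesins had 618, 458 and 441 reads in CTRL and 459, 583 and 488 in SEVO tumours. Kif3c alone made up the larger part in CTRL tumour 2 and in every SEVO tumour. Of the 16 tested genes, 15 had a lower and 1, Kif3c, a higher fitted level in SEVO tumours, and none passed the test. The share of lower genes was 93.8%, beside 90.9% of the 33 tested olfactory receptor genes and 75.3% of tested protein-coding genes without opposite-strand exon overlap. Without the minimum of reads, 14 of 17 transport kinesins were lower, beside 841 of 1071 olfactory receptor genes and 10943 of 15392 of those protein-coding genes.

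Kif3c (ENSMUSG00000020668.10, chromosome 12 from 3365132 to 3406494, plus strand), a subunit that pairs with Kif3a in a motor of the kinesin-II type, had 144, 331 and 163 reads in CTRL and 356, 431 and 261 in SEVO tumours. CTRL tumour 2 lay between SEVO tumours 3 and 1, and CTRL tumours 1 and 3 lay below. In CPM it was at 247 ± 189 and 419 ± 126, with a log2 FC of 0.77 ± 0.66 (adjusted p = 0.811 in edgeR, exact permutation p = 0.2). Exons of other genes face 3016 of its 7406 exon bases (40.7%), the largest share of any kinesin. They belong mainly to 1110002L01Rik, which covers 2617 bases at the 3′ end and had 14 to 40 reads per tumour. Gm48512, whose 588 exon bases all lie inside those of Kif3c, had 53, 76 and 89 reads in CTRL and 106, 96 and 74 in SEVO tumours. The partner Kif3a and the related Kif3b stood far lower than Kif3c, with 15.6 and 7.81 reads per kilobase. Their log2 FC was -0.75 ± 0.67 and -0.52 ± 0.77.

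Kif5b (ENSMUSG00000006740.14, chromosome 18 from 6201002 to 6242174, minus strand), the heavy chain of conventional kinesin in most tissues, had 35, 34 and 46 reads in CTRL and 11, 19 and 37 in SEVO tumours. SEVO tumours 1 and 2 were below every CTRL tumour, and SEVO tumour 3 lay among them. It was at 40.5 ± 11.5 and 25.4 ± 12.6 CPM, with a log2 FC of -0.65 ± 0.50 (adjusted p = 0.811 in edgeR, exact permutation p = 0.2). Kif5a and Kif5c, its neuronal relatives, had 35 and 40 reads in all and stood at 5.01 and 5.60 reads per kilobase, against 22.8 for Kif5b. Kif5a had 0 reads in CTRL tumour 2 and 19 in CTRL tumour 1.

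Among transport kinesins, the lowest p-values came from carriers of vesicles and mitochondria and from Kifc2. Kif1b (ENSMUSG00000063077.14, chromosome 4 from 149176319 to 149307693, minus strand) had 39, 10 and 32 reads in CTRL and 11, 7 and 14 in SEVO tumours, with CTRL tumour 2 among the SEVO tumours. It was at 25.6 ± 10.1 and 12.5 ± 3.58 CPM, with a log2 FC of -1.04 ± 0.53 (adjusted p = 0.811 in edgeR, exact permutation p = 0.3). Kif1a (ENSMUSG00000014602.15, chromosome 1 from 93015464 to 93101951, minus strand), the carrier of synaptic vesicle precursors in neurons, had 32, 0 and 14 reads in CTRL and 5, 4 and 3 in SEVO tumours. CTRL tumour 2 was the lowest of all and the other CTRL tumours were the highest. At 13 ± 12.5 and 4.82 ± 1.67 CPM, its log2 FC was -1.48 ± 0.79 (adjusted p = 0.811 in edgeR, exact permutation p = 0.4). Kif1a and Kif1b had 6.22 and 6.42 reads per kilobase in all, against 2.94 for the median olfactory receptor gene. With the olfactory receptor density as a covariate, the log2 FC of Kif1a was -0.09 ± 1.06 and that of Kif1b -0.76 ± 0.45. Kifc2 (ENSMUSG00000004187.11, chromosome 15 from 76659858 to 76668196, plus strand), a minus-end motor known from neurons, had 20, 0 and 6 reads in CTRL and 1, 2 and 3 in SEVO tumours, again with CTRL tumour 2 the lowest. Its log2 FC of -1.65 ± 1.08 (adjusted p = 0.811 in edgeR, exact permutation p = 0.4) turned to 0.27 ± 0.92 with that covariate.

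Kif21a (ENSMUSG00000022629.17, chromosome 15 from 90933276 to 91049948, minus strand), which restrains microtubule growth at the cell cortex, had 34, 17 and 23 reads in CTRL and 9, 16 and 19 in SEVO tumours. In reads the groups overlapped by SEVO tumour 3, and in CPM they did not, with 23.3 to 26.4 in CTRL and 11.7 to 20.1 in SEVO tumours. The log2 FC was -0.52 ± 0.51 (adjusted p = 0.811 in edgeR, exact permutation p = 0.1). Kifc3 (ENSMUSG00000031788.14, chromosome 8 from 95099828 to 95202812, minus strand), a minus-end motor of epithelial cell junctions, had 27, 22 and 24 reads in CTRL and 19, 17 and 23 in SEVO tumours. Its CPM of 25.4 ± 5.00 and 23.1 ± 2.43 overlapped, with a log2 FC of -0.12 ± 0.49 (adjusted p = 0.929 in edgeR, exact permutation p = 0.5).

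The remaining transport kinesins, Kif1c, Kif13a, Kif13b, Kif16b and Kif21b, had 77 to 172 reads each and log2 fold changes from -0.71 for Kif13b to -0.22 for Kif16b. In Kif13a, Kif13b and Kif21b, CTRL tumour 1 had the most reads, with 37, 50 and 66, and in CTRL tumour 2 they had 3, 5 and 7. Kif17, a motor of dendrites and cilia, had 26 reads in all and was not tested. Of 19 kinesin light chains and cargo adaptors, 17 were tested and 11 had a fitted log2 FC below 0, with a median of -0.51. At an unadjusted p under 0.05 there were 0 of 17, beside 3.67% of all tested genes. The 3 with the lowest p were Ppfia1, a liprin that binds Kif1a, at -1.10 ± 0.56, Rhot1, which ties mitochondria to their motors, at -1.29 ± 0.68, and Madd, which links Kif1 motors to Rab3 vesicles, at -1.10 ± 0.61. Of 20 genes of dynein and dynactin, the motor that runs the opposite way, 17 were tested and 14 had a fitted log2 FC below 0, with a median of -0.66. The 33 tested olfactory receptor genes had the same median, but with no filter the medians were -0.42 for dynein and dynactin and -0.84 for olfactory receptor genes. Bicd1, a dynein adaptor, was the only 1 of 17 with an unadjusted p under 0.05 (beside 2.70% of all tested genes that were lower at this p), at -1.11 ± 0.52, followed by the light intermediate chains Dync1li2 at -1.24 ± 0.63 and Dync1li1 at -0.87 ± 0.51. All 6 had an adjusted p of 0.811 (edgeR).

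Among the ciliary and other kinesins, the best counted, with 710 reads, was Kif24 (ENSMUSG00000028438.16, chromosome 4 from 41390745 to 41464887, minus strand). Its protein trims microtubules at centrioles and restrains the growth of cilia. Kif24 had 111, 83 and 95 reads in CTRL and 142, 142 and 137 in SEVO tumours. Every SEVO tumour lay above every CTRL tumour in reads and in CPM. In CPM this held for 2 of 35 tested kinesins, beside 4.32% of all tested genes. The means were 99.6 ± 15.3 and 167 ± 20.2 CPM, with a log2 FC of 0.74 ± 0.56 (adjusted p = 0.811 in edgeR, exact permutation p = 0.1). DESeq2 put Kif24 at 0.77 with an adjusted p of 0.989, and with the olfactory receptor density as a covariate edgeR put it at 0.66 ± 0.28 with an adjusted p of 0.746. None of its 8014 exon bases lies opposite an annotated exon. The nearest gene on the other strand, Ubap1, a part of the ESCRT-I complex, ends 220 bases downstream. It had 39, 70 and 61 reads in CTRL and 80, 88 and 75 in SEVO tumours, with a log2 FC of 0.61 ± 0.54.

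Kif7 (ENSMUSG00000050382.14, chromosome 7 from 79698098 to 79715720, minus strand), a regulator of Hedgehog signalling at the tip of the primary cilium, had 14, 9 and 11 reads in CTRL and 11, 11 and 24 in SEVO tumours. The reads overlapped, and in CPM the SEVO tumours, at 13.2 or more, lay above the CTRL tumours, at 12.6 or less. Its log2 FC was 0.62 ± 0.56 (adjusted p = 0.811 in edgeR, exact permutation p = 0.1). Other genes lie opposite 20.3% of its exon bases, mainly the antisense gene 9330171B17Rik, which had 84, 107 and 94 reads in CTRL and 148, 145 and 129 in SEVO tumours. Kif2a, which depolymerises microtubule ends, was the best counted of the rest with 255 reads, and its log2 FC was -0.14 ± 0.51. Kif9, a motor of motile cilia, was at 0.45 ± 0.54. The rest of the tested genes, Kif6, Kif26a, Kif26b and Kif27, had 31 to 88 reads and values from -1.14 to -0.56, and Kif12, Kif19a and Kif28 had 12, 22 and 20 reads in all and were not tested.

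Kinesins whose exons overlap those of a gene on the opposite strand were set beside those without. Overlap was found in 13 of 42 genes, from 11 bases in Kif18a to 3016 in Kif3c, and all 13 had enough reads to be tested, against 22 of the 29 others. The median density was 17.5 reads per kilobase with overlap and 8.30 without, beside 11 and 5.51 over all protein-coding genes. The 13 genes had 537, 777 and 545 reads in CTRL and 770, 889 and 678 in SEVO tumours, and the 29 had 756, 248 and 520 against 298, 372 and 453. CTRL tumour 1 was the lowest in the first group and the highest in the second. The log2 fold change was below 0 in 9 of 13 genes with overlap (69.2%, median -0.14) and in 19 of 22 without (86.4%, median -0.61). Over all tested protein-coding genes the corresponding shares were 48.8% (median 0.02) and 75.3% (median -0.46), with the medians in the same order as in the kinesins. With at least 10 reads in every tumour, the order in the kinesins turned, at -0.30 for 6 genes with and -0.24 for 2 without overlap, and the difference was not tested.

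Overlap did not sort the kinesins fully. Kif24, with none, was among the 4 best counted, and Kif22 had 1.96%. Kif4 has 832 exon bases (15.1%) opposite Pdzd11, which had 76, 136 and 102 reads in CTRL and 138, 161 and 93 in SEVO tumours, but Kif4 itself had only 7 to 15 reads per tumour. Kif5b lies opposite the antisense gene Gm17036, with 129, 240 and 149 reads in CTRL and 250, 244 and 146 in SEVO tumours, whereas Kif5b had 11 to 46. Cdc23, Pdzd11, Gm17036 and 9330171B17Rik all had more reads than the kinesin across from them in every CTRL and SEVO tumour. Gm31749 had fewer reads than Kif22, and 1110002L01Rik and Gm48512 fewer than Kif3c, in every tumour, and Dimt1 had fewer than Kif2a in 4 of 6 tumours. The log2 FC of the tested genes with such exon overlap lay between -0.34 for Gm16564, opposite Kif26b, and 0.82 for Dimt1, with adjusted p-values of 0.811 or more (edgeR). The part of reads from the opposite strand in the kinesin counts was not tested.

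The count of kinesins past the thresholds of the study depended on single tumours, and so did that of all genes. Without CTRL tumour 2, 6 of 35 kinesins passed (p under 0.02 and at least 1.5-fold). Of all tested genes, 15.0% then passed (8.42% lower and 6.62% higher), against 0.901% with every tumour kept. Kif1a (-2.04), Kif14 (-1.54), Kifc2 (-2.20) and Kif1b (-1.33) were lower and Kif3c (1.58) and Kif20a (1.28) higher in SEVO tumours. The lowest adjusted p among them was 0.0803, in Kif1a (edgeR). Without SEVO tumour 3, 1 of 32 tested kinesins passed, Kif14 at -1.99 ± 0.74 (adjusted p = 0.504 in edgeR), beside 3.67% of all genes. With edgeR's own filter on low counts, 24 kinesins were tested and 2, Kif1b at -1.44 ± 0.56 and Kif14 at -1.62 ± 0.72, had an unadjusted p under 0.05, both with an adjusted p of 0.741, beside 4.36% of all genes.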

How the data were processed

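RNA of 3 CTRL and 3 SEVO tumours was sequenced as 1 batch. The authors removed ribosomal reads with SortMeRNA, trimmed reads with Trimmomatic 0.36, aligned them with STAR 2.6.0c to GRCm38.p6 and counted unique reads per gene with HTSeq 0.9.1 on GENCODE M17, and deposited raw counts without normalization (tools and versions per the submitters' processing notes). The strand setting of HTSeq was not given in the sources used here. Tallies of reads on no feature (27930688 to 41026677 per tumour) or on several (3838 to 6114) were kept out of library sizes and tests.

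Groups came from the sample titles. No source says that the tumours of a group came from separate animals, so p-values measure the spread between these samples. Gene symbols, positions and exons were taken from GENCODE M21, on the same build, in which 53706 of 53801 identifiers were found. Counts were fitted with edgeR 4.0.16 in R 4.3.3 (TMM, glmQLFit, glmQLFTest), for the 13095 genes with at least 30 reads over the 6 tumours. The standard error of a log2 fold change was derived from the F statistic. CPM are reads over the effective library size of that fit. Exact permutation tests of mean CPM were two-sided over the 20 splits of the tumours. The alternatives were RLE size factors, library size only, filterByExpr, no filter, at least 10 reads in every tumour, DESeq2 1.42.0, a replicate block and leaving out each tumour. The background covariate was the density of olfactory receptor reads. The fit was tested on simulated counts of 12878 genes, where a 2-fold change was estimated as 2.11 and a 4-fold change as 4.08.

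The members, classes and lists were chosen with earlier results of these data known. Kinesins given in full were the 6 with the lowest p, the 4 with the most reads per kilobase, those with non-overlapping CPM, Kif20a and the 3 others with the largest share of opposite exon bases, and Kif11, Kif23 and Kif5b. Of each partner list, the 3 lowest p were named. Other genes named were chosen after their values were seen. The result of 1 gene is not reported here.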

Additional observations from a re-analysis of the deposited data

How the results depend on the processing

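At an adjusted p under 0.05, 0 kinesins were called under each of the 14 alternatives. At the thresholds of the study, leaving out a tumour gave counts of 0 to 6, and every other alternative gave 0. The median log2 fold change of the mitotic kinesins was -0.40. It was -0.92 with filterByExpr (9 genes), -0.04 with at least 10 reads in every tumour (3 genes) and between -1.17 and -0.26 with a tumour left out. For kinesins with an opposite-strand exon overlap the median moved from -0.14 to -0.39 with filterByExpr (9 genes), and was 0.04 with no filter and 0.02 without CTRL tumour 2. The transport median stayed between -0.91 and -0.11, and that of kinesins without overlap between -1.10 and -0.14. Among the kinesins given in full, the sign changed in Kif22, at -0.04 with at least 10 reads in every tumour, Kifc2, at 0.27 with the background covariate, and Kifc3, at 0.06 with no filter and between -0.30 and 0.02 with a tumour left out. Of the others, Kif13a, Kif13b, Kif21b, Kif5a, Kif6 and Kif26a turned from below 0 to 0.08 to 0.49 with the covariate, Kif2a to 0.25 and Kif4 to 0.02 without CTRL tumour 2, and Kif15 to 0.07 without SEVO tumour 3. Apart from fewer genes tested, the cause was not tested. Over all genes the median was -0.07, against -0.38 with no filter and 0.17 with the covariate. Deviations from the group mean correlated at -0.26, 0.309 and 0.101 between same-numbered tumours 1, 2 and 3. The titles link such tumours only by number, and these 3 values cannot settle whether they were paired. With the replicate block, 0 kinesins were called at either threshold, and the mitotic and transport medians were -0.50 and -0.54. With a median of 79.5 reads per kinesin over 6 tumours, counts limit what can be detected.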
